A study of Mus musculus with 12 samples.

Results

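The genes described here are 9 that the liver switches on in fasting or that are driven by PPARα, the receptor that the first of them encodes: Ppara, Pdk4, Fgf21, Angptl4, Cpt1a, Acot1, Acot2, Ehhadh and Vnn1. They were chosen by name, and all 9 were found among the 53465 genes of the count table and among the 28449 genes with at least 1 count. RNA-seq was available for livers of C57BL/6N mice of 3 ages: 4 young at 3 months, 4 middle-aged at 12 months and 4 aged at 18 months, each liver from a different animal. The study's methods describe male mice with free access to food, and no animal carried a transgene or received a treatment. The hour of collection and the feeding state at that hour are not given in the sources used here, and the study gives conflicting accounts of how these libraries were prepared. The question put to each gene was whether its steady-state RNA differed between ages.

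PPARα is a nuclear receptor of hepatocytes that is activated by fatty acids. It binds DNA with the retinoid X receptor and switches on genes for the uptake, activation and oxidation of fatty acids when food is withdrawn. Its targets also include secreted proteins through which the fasted liver signals to other tissues, and several of them follow the hour of the day as well as the meal.

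Counts assigned to genes ranged from 8124312 to 10527159 per liver, and a floor of 3 counts corresponded to 0.285 to 0.369 CPM (counts scaled to a common total). Hepatocyte markers were abundant in every liver, their summed normalised count lying between 745507 and 1015730, and none of the 6 was called between any 2 ages. Young replicate 2 stood apart, with 19.2% of its counts on mitochondrially encoded genes against 5.48 to 10.7% elsewhere. Synthetic spike-in RNAs took 10.6% of its gene and spike-in counts together, against 1.59 to 6.23% elsewhere. Young replicate 3 and middle-aged replicate 1 had more genes detected (22284 and 19982) than the other livers, which had at most 17563. The composition of the synthetic spike-in RNAs separated replicates 1 and 2 (here set A) from replicates 3 and 4 (set B) at every age: the lowest correlation within a set was 0.997 and the highest between them 0.925, over 31 spike-ins. The labels do not say what separates the sets, so results are also given within each set, which leaves 2 livers per age. Where a gene differs between whole livers, fewer cells of a type and less RNA per cell cannot be told apart.

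A promoter sequence was found for 7 of the 9 genes in the RefSeq table of windows from 250 bases before to 50 bases after the gene start (GRCm38.p6). Those of Fgf21, the gene with the widest fitted change, and of Acot1, Acot2 and Ehhadh, which rose and fell together across the livers, are shown 5′ to 3′ on the strand of the gene. Fgf21 lies at chr7:45615441-45615740 on the minus strand, Acot1 at chr12:84009252-84009551 on the plus strand, Acot2 at chr12:83987611-83987910 on the plus strand, and Ehhadh at chr16:21787785-21788084 on the minus strand. Capitals mark every match, on either strand, to the nuclear receptor core motif AGGTCA, the TATA box TATAAA, the E-box CACGTG, the CCAAT box CCAAT or TGATGCAA, the core of the amino acid response element.
Fgf21: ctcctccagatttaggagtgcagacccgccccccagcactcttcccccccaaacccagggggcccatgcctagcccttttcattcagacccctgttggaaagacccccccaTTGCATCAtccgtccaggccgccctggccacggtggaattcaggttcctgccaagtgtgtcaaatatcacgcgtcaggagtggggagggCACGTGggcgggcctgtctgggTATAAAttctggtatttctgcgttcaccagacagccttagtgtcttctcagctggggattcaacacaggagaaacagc
Acot1: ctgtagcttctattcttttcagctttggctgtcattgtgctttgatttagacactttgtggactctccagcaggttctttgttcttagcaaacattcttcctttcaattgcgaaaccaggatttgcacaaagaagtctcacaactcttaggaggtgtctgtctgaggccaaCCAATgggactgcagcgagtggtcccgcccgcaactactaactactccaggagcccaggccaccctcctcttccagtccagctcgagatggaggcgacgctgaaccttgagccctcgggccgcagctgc
Acot2: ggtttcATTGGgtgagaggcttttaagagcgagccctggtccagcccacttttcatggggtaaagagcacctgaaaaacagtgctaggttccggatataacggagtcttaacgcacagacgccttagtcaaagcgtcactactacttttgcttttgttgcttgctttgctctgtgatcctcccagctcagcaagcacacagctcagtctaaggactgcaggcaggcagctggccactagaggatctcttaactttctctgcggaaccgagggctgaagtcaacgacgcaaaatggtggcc
Ehhadh: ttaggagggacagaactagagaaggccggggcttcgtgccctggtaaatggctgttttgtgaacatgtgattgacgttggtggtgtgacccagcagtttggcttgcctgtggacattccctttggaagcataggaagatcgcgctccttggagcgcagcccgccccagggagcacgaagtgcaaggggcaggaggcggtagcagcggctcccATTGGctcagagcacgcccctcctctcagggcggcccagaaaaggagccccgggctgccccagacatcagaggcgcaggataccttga

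The Fgf21 window held a TATA box from base -28 to -23 and an E-box from -50 to -45, counted from the gene start. It also held the amino acid response element core, read on the opposite strand, from -139 to -132. These letters occur in 13.6%, 7.15% and 0.895% of the 32851 windows in the table. The other 3 windows held a single CCAAT box each, a motif found in 37.4% of all windows. The core motif AGGTCA, present in 16.3% of windows, was found in 1 of the 7 members, Cpt1a. A direct repeat of that core motif with 1 base between the copies, the form PPARα binds, was searched with up to 2 mismatches and was found in none of the 7, against 3.86% of all windows. A match describes these letters and not a bound site, and no match concerns this window alone.

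Per kilobase of annotated exon, Ehhadh was the most abundant of the genes, with a mean of 918 normalised counts per kb over the 12 livers. Cpt1a followed with 293, Ppara with 160.2, Angptl4 with 122, Vnn1 with 62.9, Acot1 with 28.1, Pdk4 with 17.3, Acot2 with 13.3 and Fgf21 with 8.41. Ehhadh exceeded Cpt1a in 12 of 12 livers with no overlap of their ranges, and Cpt1a exceeded Ppara in 12 of 12. Ppara exceeded Angptl4 in only 7 livers, and Pdk4 exceeded Acot2 in 7. Those neighbours therefore did not differ beyond their spread, and every other pair of neighbours below Cpt1a overlapped in range too, the higher gene leading in 8 to 10 of the 12 livers. Within an age, most of the genes varied more between livers than is usual. The residual SD of log2(normalised count + 1) was 1.06 for Vnn1 and 0.88 for Pdk4, above 98.2% and 97.0% of the 11804 genes with a mean of at least 10. It was 0.22 for Cpt1a, near the median of those genes, 0.23.

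Between aged and young livers, Fgf21 and Vnn1 were higher and the other 7 genes did not pass the test. The count of 2 of 9 called by DESeq2 (adjusted p under 0.05) stands beside 3.58% of the 13527 genes tested. The median log2 fold change was 0.76 over the 9 genes and -0.000299 over all genes tested, and 7 of the 9 had an unadjusted p under 0.05 against 15.9% of all genes tested. Between middle-aged and young livers Ppara alone was called, 1 of the 8 genes tested beside 6.41% of 11333 genes. Their median was 0.40 against 0.01 over all genes tested. Between aged and middle-aged livers none of 8 was called, beside 1.14% of 10236 genes, and edgeR and limma-voom called none either. An unadjusted p under 0.05 was found for 3 of the 9 genes there, against 9.94% of all genes tested. Across the 3 ages together, Fgf21 and Vnn1 were called, beside 6.96% of 12430 genes. Fgf21 had too few counts to receive an adjusted p in the last 2 pairwise comparisons.

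**Figure D1:**
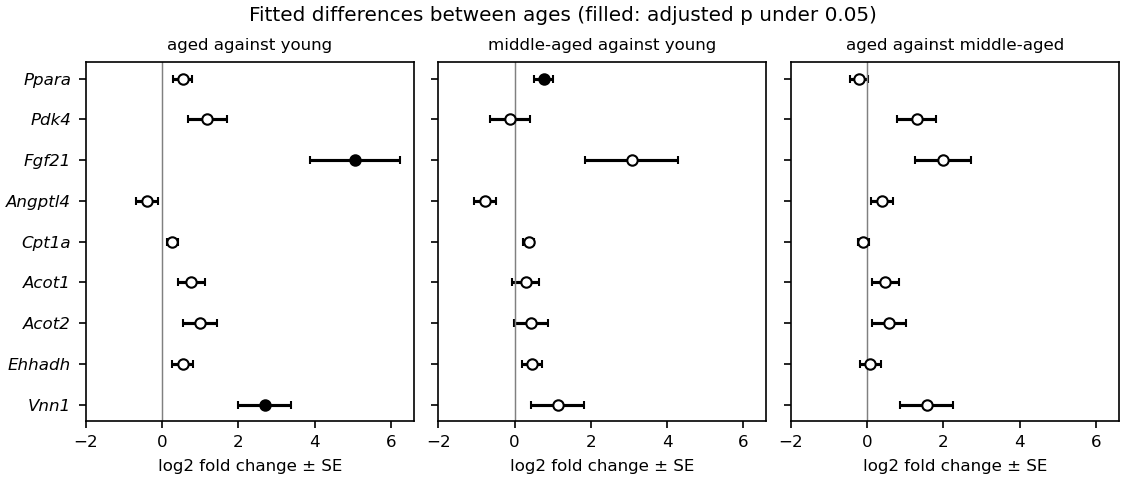
Fitted log2 fold change (horizontal axis) of each gene (vertical axis) in the 3 comparisons, with bars of ± 1 SE and filled points where the DESeq2 adjusted p is under 0.05. Fgf21 (5.06) and Vnn1 (2.69) are filled between aged and young, Ppara (0.76) is filled between middle-aged and young, and no point is filled between aged and middle-aged.

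Ppara, the receptor itself (ENSMUSG00000022383, chromosome 15, 85734983 to 85802819, plus strand, GRCm38), had normalised counts of 416, 288, 463 and 610.2 in young replicates 1 to 4. It had 776, 702, 686 and 845 in the middle-aged livers and 367, 817, 826 and 577 in the aged ones. All 4 middle-aged livers lay above all 4 young livers, while the aged livers spanned from the young range to the middle-aged one. The mean was 444 ± 133 at 3 months, 752 ± 73.2 at 12 months and 647 ± 219 at 18 months (SD, n = 4). Middle-aged exceeded young by 0.76 ± 0.25 (SE) on the log2 scale, a 1.69-fold difference with a DESeq2 adjusted p of 0.0393. Groups without overlap were found for 14.6% of the 12909 genes with a mean of at least 5 in this comparison. Aged against young was 0.54 ± 0.25 with an adjusted p of 0.233, and it was called without aged replicate 1 (0.73, adjusted p = 0.0102). The call for middle-aged against young was absent with edgeR, with limma-voom, without independent filtering, within set B, without young replicate 1, 2 or 3, and without any single middle-aged liver. It was also absent with edgeR and a replicate block and without both libraries with most detected genes. Counts of long genes relative to short ones also varied between the livers. Deviations from the gene means correlated with exonic length at a Spearman rho between -0.31 and 0.04 in young livers, 0.05 and 0.27 in middle-aged livers and -0.35 and 0.30 in aged ones. With an offset for exonic length, Ppara stayed at 0.77 with an adjusted p of 0.0402.

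Fgf21 encodes a hormone that the liver secretes in fasting and in amino acid stress (ENSMUSG00000030827, chromosome 7, 45613886 to 45615490, minus strand). Its read counts before normalisation were 1, 0, 1 and 0 in the young livers, 8, 9, 1 and 2 in the middle-aged livers and 9, 18, 38 and 17 in the aged livers. After normalisation the aged livers had 9.03 to 33.2, the middle-aged livers 0.883 to 8.08 and the young livers 0 to 1.18. By normalised count every aged liver was above every middle-aged and every young liver, by a narrow margin for aged replicate 1 over middle-aged replicate 2, both with 9 reads, and middle-aged overlapped young. Groups without overlap were found for 7.69% of genes with a mean of at least 5 between aged and young, and for 5.9% between aged and middle-aged. The 2 counts of the young livers together against 82 in the aged ones gave a ratio of 34.3 after scaling for depth, with an exact 95% interval from 9.20 to 288 that covers counting error only. The fitted log2 fold change was 5.06 ± 1.19 (SE) with an adjusted p of 0.00213. Aged against middle-aged gave a ratio of 4.06 (2.46 to 6.98) and middle-aged against young one of 8.46 (2.05 to 74.6). The young counts are at or under the floor, so the size of the change is poorly fixed while its direction held in each left-out fit, where the log2 fold change lay between 4.60 and 5.58. Filters on low counts, including the one used with edgeR and limma-voom, removed the gene.

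Angptl4, a secreted inhibitor of lipoprotein lipase (ENSMUSG00000002289, chromosome 17, 33773750 to 33781830, minus strand), had the lowest correlations with the other genes. Its normalised counts were 506, 387, 487 and 831 in young livers, 350.5, 445, 309.9 and 181 in middle-aged livers, and 499, 575, 322 and 295 in aged livers. The means were 553 ± 193, 322 ± 109 and 423 ± 136 (SD, n = 4), with overlap between every 2 ages. The log2 fold change was -0.39 ± 0.29 between aged and young (adjusted p = 0.574) and -0.78 ± 0.29 between middle-aged and young (adjusted p = 0.0819). Within set B it was lower in aged livers (-1.10 ± 0.28, adjusted p = 0.00308) and in middle-aged livers (-1.43 ± 0.28, adjusted p = 3.36e-05) than in young ones. Within set A these values were 0.27 ± 0.24 and -0.17 ± 0.24, neither called. The difference between the sets in aged against young, tested as an interaction, was -1.36 ± 0.40 with an adjusted p of 0.0708. None of the 9 genes was called for that interaction, beside 0.732% of 10799 genes. Angptl4 and Ehhadh had an unadjusted p under 0.05 for it, and edgeR called none. Angptl4 was called for it with a filter on low counts and without young replicate 1 or 3 or middle-aged replicate 3 or 4, each in turn, and Ehhadh without young replicate 2.

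**Figure D2:**
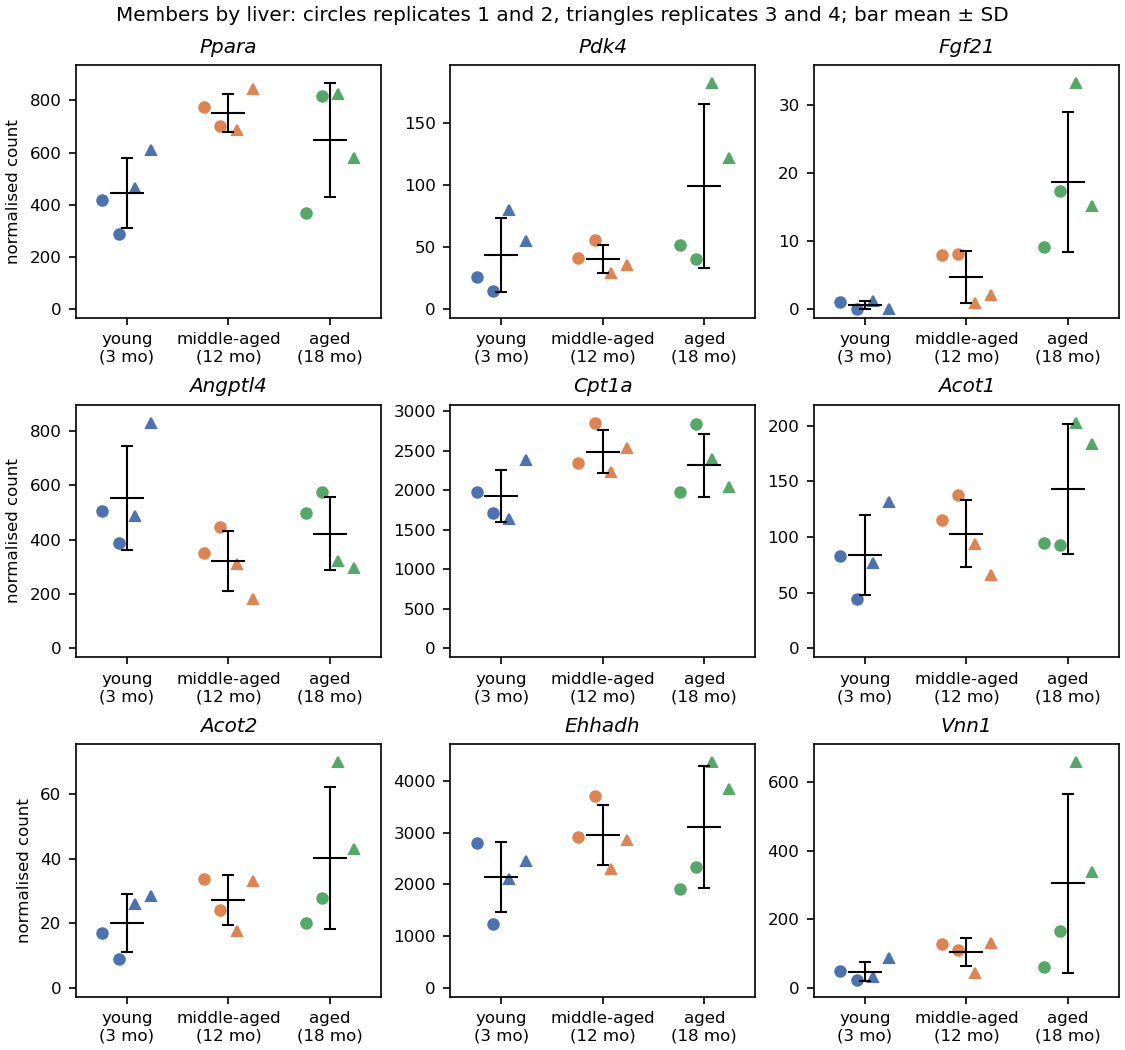
Normalised count (vertical axis) of each gene in each of the 12 livers, by age (horizontal axis, mo for months), with circles for replicates 1 and 2, triangles for replicates 3 and 4, and black bars for the mean ± SD of 4 livers. The aged triangles are the 2 highest points for Pdk4, Acot1, Acot2, Ehhadh and Vnn1, and for Angptl4 they are the lowest of the aged livers.

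Pdk4 phosphorylates pyruvate dehydrogenase and so spares glucose in fasting (ENSMUSG00000019577, chromosome 6, 5483351 to 5496309, minus strand). Its normalised counts were 25.5, 14.0, 79.4 and 54.7 in young livers, 40.7, 55.7, 29.1 and 35.1 in middle-aged livers, and 51.2, 40.5, 182 and 122 in aged livers. Aged replicates 3 and 4 stood above the other 10 livers, and the groups overlapped in every comparison. Aged against young was 1.19 ± 0.52 on the log2 scale with an adjusted p of 0.205, and aged against middle-aged 1.30 ± 0.52 with 0.273. Middle-aged against young was -0.11 ± 0.53. That last value was 1.28 within set A and fell by 1.07 within set B.

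Cpt1a encodes an enzyme for the entry of long-chain fatty acids into the mitochondrion, the rate-limiting step of their oxidation (ENSMUSG00000024900, chromosome 19, 3322334 to 3385733, plus strand). Cpt1a was the steadiest of the genes. Its mean was 1926 ± 334 at 3 months, 2485 ± 275 at 12 months and 2314 ± 395 at 18 months (SD, n = 4). The lowest liver had 1639 and the highest 2851 normalised counts, and the ages overlapped. The 95% interval of the log2 fold change was -0.02 to 0.55 between aged and young and 0.08 to 0.65 between middle-aged and young, with adjusted p values of 0.374 and 0.105. It was called in the second comparison when scaled by total gene counts in place of size factors, with only the 2 ages compared, and without young replicate 4.

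Acot1 and Acot2 are acyl-CoA thioesterases of the cytosol and the mitochondrion, respectively, and neighbours on chromosome 12 (ENSMUSG00000072949, 84009490 to 84018371, and ENSMUSG00000021226, 83987861 to 83993873, both plus strand). Acot1 had 82.8, 44.6, 77.0 and 132 normalised counts in young livers, 115, 137, 93.6 and 66.1 in middle-aged livers, and 94.3, 92.5, 203 and 183 in aged livers. Acot2 had 17.0, 8.92, 26.1 and 28.3, then 33.8, 24.2, 17.7 and 33.1, then 20.1, 27.9, 69.9 and 42.9 in the same order. For both, aged replicates 3 and 4 were the highest livers and young replicate 2 the lowest, and the ages overlapped. Aged against young was 0.76 ± 0.35 for Acot1 (adjusted p = 0.233) and 1.0 ± 0.45 for Acot2 (adjusted p = 0.219). The 2 genes share sequence: 17.6% of the 50-base windows of the longest Acot1 transcript also stand in Acot2, and 24.6% of those of Acot2 in Acot1, so their single values depend on how the counting treated shared reads.

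Ehhadh, the bifunctional enzyme of peroxisomal fatty acid oxidation (ENSMUSG00000022853, chromosome 16, 21761287 to 21787807, minus strand, overlapped by a small nuclear RNA gene on the other strand), had 2796, 1226, 2103 and 2456 normalised counts in young livers. It had 2921, 3718, 2304 and 2853 in middle-aged livers and 1912, 2339, 4364 and 3846 in aged livers. Aged replicates 3 and 4 were again the highest, and aged replicates 1 and 2 lay within the young range. Aged against young was 0.54 ± 0.27 (adjusted p = 0.303), and aged against middle-aged 0.08 ± 0.27. Within set B alone, aged exceeded young by 0.84 ± 0.14 (adjusted p = 2.68e-07), while within set A the value was 0.08 ± 0.50.

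Vnn1 encodes pantetheinase, which releases cysteamine and pantothenic acid (ENSMUSG00000037440, chromosome 10, 23894688 to 23905343, plus strand). It had 47.8, 22.9, 30.8 and 86.9 normalised counts in young livers, 129, 109.5, 44.2 and 131 in middle-aged livers, and 59.2, 165, 659 and 337 in aged livers. Aged replicates 3 and 4 were the highest livers, aged replicate 1 lay within the young range, and the groups overlapped. The mean was 305 ± 262 in aged against 47.1 ± 28.5 in young livers (SD, n = 4). The fitted log2 fold change was 2.69 ± 0.69 with a DESeq2 adjusted p of 0.00686. It was also called by edgeR, but not by limma-voom or by edgeR with a replicate block, not without young replicate 2 or aged replicate 3, and not without both libraries with most detected genes. Within set B the value was 3.07 ± 0.89 (adjusted p = 0.0168) and within set A it was 1.66 ± 0.50 (adjusted p = 0.0649). Middle-aged against young was 1.13 ± 0.70 with an adjusted p of 0.341. Within set A it was 1.74 ± 0.50 (adjusted p = 0.0270) and within set B 0.56 ± 0.89 (adjusted p = 0.866).

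**Figure D3:**
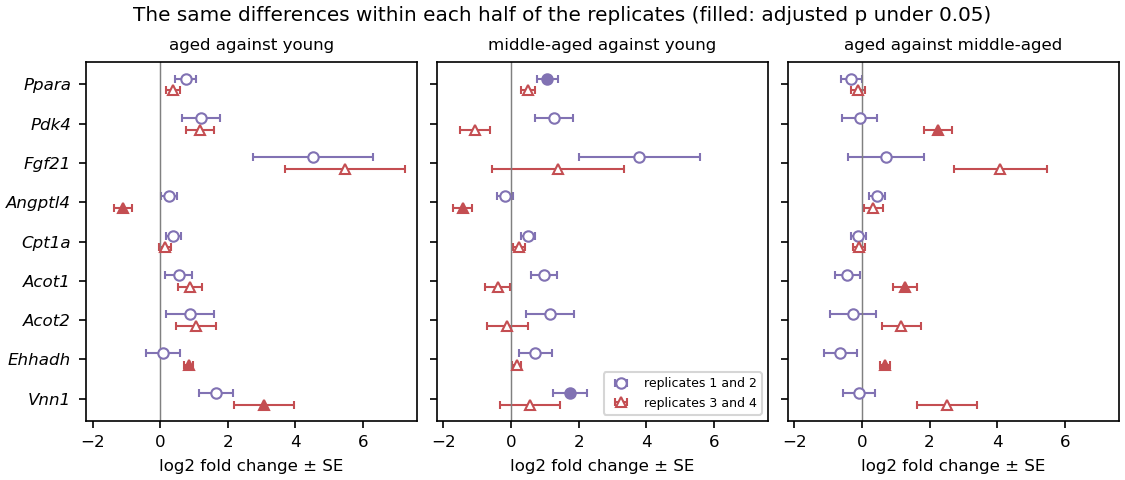
Log2 fold change ± SE (horizontal axis) of each gene (vertical axis) fitted within set A (replicates 1 and 2, circles) and within set B (replicates 3 and 4, triangles), 2 livers per age in each fit, filled where the adjusted p is under 0.05. Between aged and middle-aged livers the triangles of Pdk4 (2.25), Acot1 (1.28) and Ehhadh (0.68) are filled and the circles of the same genes lie below 0.

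Some of the genes, but not all, were highest in the same 2 aged livers. For 5 of the 9 (Pdk4, Acot1, Acot2, Ehhadh and Vnn1) the 2 highest of the 12 livers were aged replicates 3 and 4. The same held for 4.53% of the 12909 genes with a mean of at least 5 and for 15 of 61 other PPARα targets (24.6%), a count made after the values were seen. Those livers did not stand apart in depth or in genes detected. The correlation of deviations with exonic length was the highest of the 12 livers in aged replicate 3 (0.30) but -0.015 in aged replicate 4. Some clock genes stood apart in them: Dbp, an output of the clock, had 18.4 and 52.7 normalised counts there against 130 to 908 in the other 10 livers, and Arntl, a core activator of the clock, had 249 and 228 against at most 154. Cry1 and Npas2 were also higher there than in the other 10 livers, and Tef, Nr1d2, Per3 and Bhlhe41 lower. Others did not stand apart: Nfil3 had 522 and 379 against 105 to 518 in the other 10 livers. Bhlhe40 had 377 and 910 against 431 to 1167, and Cry2 and Ciart did not stand apart either. The share of all genes that stood apart in this way was not counted. The part of the clock genes in these values was not tested. At the other end, young replicate 2 was the lowest liver for 6 of the 9 genes, for 28 of the 61 other PPARα targets (45.9%) and for 15.7% of the 12909. Without it, Fgf21 was the 1 gene called between aged and young, and no gene was called between middle-aged and young. That liver also stood apart in its mitochondrial and spike-in shares. Its correlation of deviations with exonic length, -0.31, was the lowest but for that of aged replicate 1 (-0.35). The part of these features in the order of the livers was not tested.

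Across the 12 livers Pdk4, Fgf21, Acot1, Acot2, Ehhadh and Vnn1 rose and fell together, a grouping made after the values were seen, while most pairs with Ppara, Cpt1a or Angptl4 did not pass the test. Of the 36 pairs, 18 had a positive Pearson correlation of log2(normalised count + 1) with an adjusted p under 0.05 (permutation test, Benjamini-Hochberg over the 36 pairs). The share among pairs of all genes was not counted, so the 18 cannot be read as particular to these genes. Of the 15 pairs among Pdk4, Fgf21, Acot1, Acot2, Ehhadh and Vnn1, all were positive and 14 passed, a count that depends on how the group was picked. With Spearman's rho and the same permutation test, most of these 15 did not pass. Pdk4 with Vnn1 (rho = 0.53, adjusted p = 0.140) and Acot1 with Acot2 (0.60, 0.112) were among them, while Ehhadh with Vnn1 passed (0.80, 0.0301). Of the 13 other pairs that held Ppara or Cpt1a but not Angptl4, 4 passed. The closest was Acot2 with Vnn1, at r = 0.90 and Spearman rho = 0.85, with permutation p of 8e-05 and 0.00076 and adjusted p of 0.00288 and 0.0247. Without the 2 livers farthest from the median of Acot2, r was 0.80, and within sets A and B it was 0.96 and 0.92. Pdk4 with Acot2 gave r = 0.87 and rho = 0.70 (permutation p of 0.00052 and 0.0144, adjusted p of 0.00672 and 0.0574), and r fell to 0.63 without the 2 livers farthest from the median of Pdk4. Ppara was closest to Cpt1a, at r = 0.82 and rho = 0.83 (permutation p of 0.00112 and 0.00137, adjusted p of 0.00672 and 0.0247) and r = 0.79 without 2 livers. The 8 pairs with Angptl4 lay between -0.31 and 0.06, and none passed. After the age means were removed, Acot2 with Vnn1 still had r = 0.87, but no pair passed when labels were permuted within ages, the smallest adjusted p being 0.0690.

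**Figure D4:**
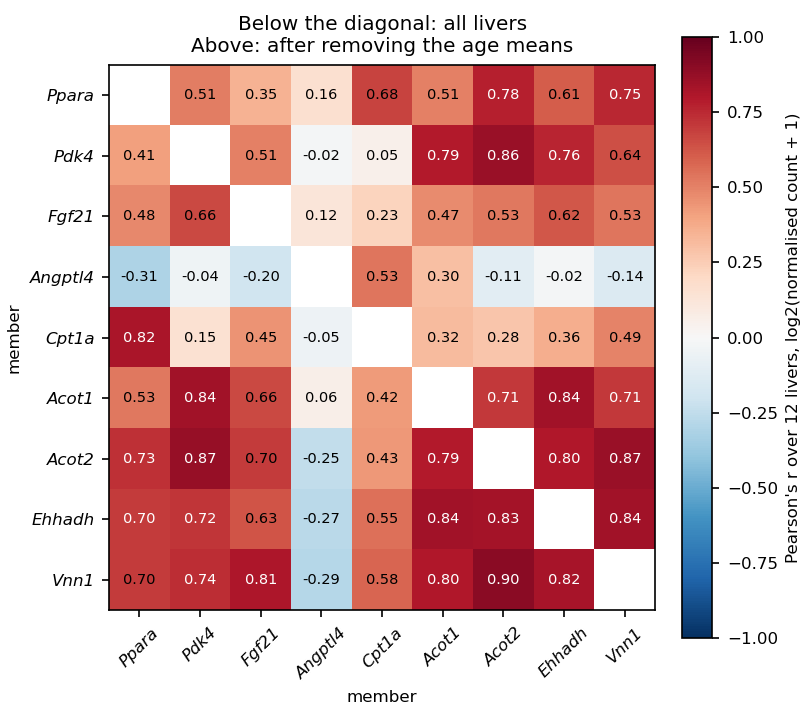
Pearson's r between each 2 genes (both axes) over 12 livers, coloured from -1 to 1, with all livers below the diagonal and deviations from the age means above it. Acot2 with Vnn1 is the highest below the diagonal (0.90) and Ppara with Angptl4 the lowest (-0.31).

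Genes outside the list with the most similar pattern over the 12 livers, among 8888 genes with a mean of at least 50, were named for the 3 genes called in a comparison. Ppara was closest to Gabbr2 (r = 0.97), Ago2 (0.96) and 8030462N17Rik (0.95). Fgf21 was closest to Tmie (0.95), Nudt4 (0.92) and Paqr9 (0.91). Vnn1 was closest to Eif4g2 (0.95), the fatty acid hydroxylase gene Cyp4a10 (0.94) and Zfp62 (0.94).

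Among 64 other PPARα targets, 11 of the 61 tested were higher and 2 lower in aged than in young livers, beside 3.58% of all genes tested. The median log2 fold change of the 61 was 0.26, against -0.000299 over all genes tested. Among those called whose mean normalised count was 50 or more, the largest differences were those of Cyp4a14 (6.17 ± 1.26, adjusted p = 2.20e-04) and Cyp4a10 (3.28 ± 0.75, 0.00155), fatty acid ω-hydroxylases, of Abcd2, a peroxisomal transporter (3.24 ± 0.93, 0.0223), and of Cd36, a fatty acid receptor (1.74 ± 0.48, 0.016). Cyp4a14 reached 3452 and 1204 normalised counts in aged replicates 3 and 4, against 20.1 and 113 in aged replicates 1 and 2 and 1.27 to 34 in young livers. The 2 genes that fell, named here after their values were seen, were Cyp4a12b (-1.35 ± 0.26, 7.53e-05) and Cyp4a12a (-1.05 ± 0.20, 3.45e-05), which are known for higher levels in male than in female mice and are near-identical copies, so that their single values depend on how shared reads were counted. With edgeR 6 of the other targets were called in this comparison, and 4 within set A against 17 within set B. Without young replicate 2 or aged replicate 3 there were 7, without young replicate 3 there were 8, and without young replicate 4 or aged replicate 1 there were 21 and 26.

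Middle-aged livers differed from young ones in 8 of 60 other targets, 6 higher and 2 lower, with a median of 0.16. Over all genes tested the share called was 6.41% and the median 0.01. Acot4, a peroxisomal thioesterase, was higher by 1.21 ± 0.23 (adjusted p = 4.25e-05) and Slc22a5, the carnitine transporter, by 0.65 ± 0.18 (0.00937). Cyp4a12b (-1.32 ± 0.26, 1.10e-04) and Cyp4a12a (-1.11 ± 0.20, 5.58e-06) fell. None of 58 was called between aged and middle-aged livers by DESeq2 or edgeR, beside 1.14% of all genes tested by DESeq2. An unadjusted p under 0.05 was found for 8 of the 58, against 9.94% of all genes tested, and the median of the 58 was 0.10. Within set B 11 were called in that comparison, and within set A 1. The 8 of middle-aged against young became 4 with edgeR and with the replicate block, 3 within set B, and 3 to 13 without single livers: 4 without young replicate 2 or 3, 5 without middle-aged replicate 1 or 4, 3 without middle-aged replicate 2 and 13 without young replicate 4. Without aged replicate 1, 1 was called between aged and middle-aged livers.

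**Figure D5:**
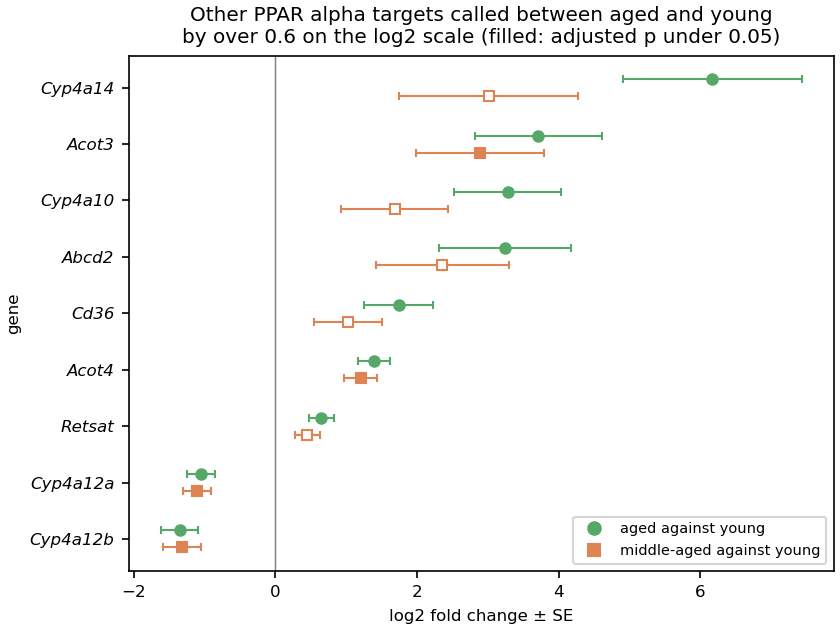
Log2 fold change ± SE (horizontal axis) of the 9 other PPARα targets (vertical axis) called between aged and young livers with a change of over 0.6 (circles), with the same genes between middle-aged and young livers (squares), filled where the adjusted p is under 0.05. Cyp4a14 (6.17) is the farthest to the right, and Cyp4a12a and Cyp4a12b lie below 0 in both comparisons, which share the young livers.

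Of 21 partners and coregulators of PPARα tested in each comparison, 1 was called in each (4.76%). The share of all genes tested was 3.58% for aged against young, 6.41% for middle-aged against young and 1.14% for aged against middle-aged livers. The medians of the 21 were 0.10 for aged over young, 0.18 for middle-aged over young and -0.06 for aged over middle-aged livers. Lpin1, which acts as a coactivator and as a phosphatidate phosphatase, fell by 1.95 between young and aged (adjusted p = 3.36e-05). The other gene, Ppargc1b, a coactivator of oxidative metabolism named here after its values were seen, was higher in middle-aged than in young (1.18 ± 0.29, adjusted p = 0.00278) and in aged livers (-1.16 ± 0.28 for aged against middle-aged, 0.00763). Rxra, the partner in DNA binding, had 3222 to 3489 normalised counts in young livers and 2939 to 3627 in aged ones. The call between middle-aged and young was lost without middle-aged replicate 1, 2 or 4, and 2 genes were called without young replicate 1 or 3. Between aged and middle-aged it was lost without middle-aged replicate 2 or 4 or aged replicate 3 or 4.

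Of 20 fasting genes of gluconeogenesis and hormone signalling, 2 fell and none rose between young and aged livers, with a median of -0.25: Igfbp1, a secreted binding protein repressed by insulin (-2.14 ± 0.59, adjusted p = 0.0147), and Trib1 (-0.42 ± 0.13, 0.0328). Between young and middle-aged livers 5 of 19 were called, 2 higher and 3 lower, with a median of -0.15. Igfbp1 fell most (-3.36 ± 0.60, 5.58e-06), from 260.1 to 569 normalised counts in young livers to between 24.7 and 66.4. Tsc22d3, a glucocorticoid-induced gene (-1.04 ± 0.23, 6.78e-04), and Insig2 (-0.70 ± 0.19, 0.00681) also fell, while the glucocorticoid receptor gene Nr3c1 was higher by 0.39 ± 0.12 (0.0306). Between aged and middle-aged livers 2 of 19 were called, Insig2 higher by 0.71 ± 0.19 (0.0221) and Foxo3 lower (-0.56 ± 0.12, 0.0028), with a median of -0.10. The shares of all genes tested that were called in these comparisons, in that order, were 3.58%, 6.41% and 1.14%. The count of 2 for aged against young was 0 without young replicate 2 or 3, 1 without aged replicate 2, 3 or 4, and 4 without young replicate 1. For aged against middle-aged it was 1 without middle-aged replicate 1, 2 or 4 or aged replicate 3 or 4.

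Of the fed-state genes of lipid and glucose metabolism, none of 17 was called between aged and young (median 0.38) and none of 16 between aged and middle-aged (median -0.22) by DESeq2 or edgeR, with 7 and 3 at an unadjusted p under 0.05. DESeq2 called 3.58% of all genes tested between aged and young, 1.14% between aged and middle-aged and 6.41% between middle-aged and young. In middle-aged livers Srebf1, a regulator of lipogenesis (0.81 ± 0.20, adjusted p = 0.00382), and Pklr, liver pyruvate kinase (0.77 ± 0.25, 0.0401), were higher than in young ones, 2 of 16, with a median of 0.54. Single livers moved these counts: 5 genes were called between aged and young without aged replicate 1 and 1 without aged replicate 4. Between aged and middle-aged 1 was called without aged replicate 3, and between middle-aged and young 1 without young replicate 2 or middle-aged replicate 1 or 2. Among 17 FGF21 receptors and amino acid stress genes, Fgfr4 (0.62 ± 0.13, 4.50e-04) and Atf5 (0.38 ± 0.09, 0.00309) were higher in aged than in young livers, with a median of 0.17. Against middle-aged livers, Atf5 was again higher in aged ones (0.38 ± 0.09, 0.00593), 1 of 13 with a median of -0.22, and Fgfr3 was higher in middle-aged than in young livers (0.68 ± 0.20, 0.023), 1 of 13 with a median of 0.23. Klb, the coreceptor of FGF21, had 178 to 282 normalised counts in young livers and 165 to 358 in aged ones. Without aged replicate 1, 6 genes of this list were called between aged and young and 2 between aged and middle-aged. The latter count was 0 without middle-aged replicate 3 or 4 or aged replicate 3. Between middle-aged and young it was 0 without young replicate 2, 3 or 4 or middle-aged replicate 1 or 3, and 2 without young replicate 1.

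The clock genes differed in another order. Only Cry1 of 18 was called between aged and young livers (0.91 ± 0.26, adjusted p = 0.0188), with a median of -0.05. Between middle-aged and young livers 7 of 17 were called, 6 higher and 1 lower, with a median of 0.29, and between aged and middle-aged 9 of 16, 3 higher and 6 lower, with a median of -0.40. Among all genes tested 3.58% were called between aged and young, 6.41% between middle-aged and young and 1.14% between aged and middle-aged. Dbp was higher in middle-aged than in young livers (1.95 ± 0.56, 0.0142) and lower in aged than in middle-aged ones (-2.78 ± 0.56, 3.55e-04), and Nfil3, which represses the same sites, was -1.01 ± 0.22 (6.91e-04) and 1.53 ± 0.22 (1.65e-08). Tef followed Dbp (0.91 ± 0.21, 0.0018, and -1.27 ± 0.21, 5.77e-06). Bhlhe40 was higher in middle-aged than in young livers (0.80 ± 0.26, 0.038), and Arntl rose between 12 and 18 months (1.56 ± 0.39, 0.0117). With edgeR the 3 counts were 0, 4 and 5. For aged against young the count was 0 without young replicate 1 or 2 or aged replicate 3 or 4, 2 without aged replicate 2 and 5 without aged replicate 1. For middle-aged against young it was 3 without young replicate 4 or middle-aged replicate 1 and 4 without young replicate 3 or middle-aged replicate 2, and for aged against middle-aged it was 4 without aged replicate 3. As the hour of collection is not given, age and hour cannot be told apart here.

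Markers of other tissues and cell types were summed in each liver. The summed normalised count of 7 adipocyte markers was 149 to 239 in young livers, 113 to 162 in aged ones and 136 to 1003 in middle-aged ones, with a median of 146 in the last. That of 6 skeletal muscle markers was 0 to 699 in young, 1.0 to 842 in middle-aged and 0.963 to 27.1 in aged livers, with medians of 7.35, 17.8 and 3.08. The muscle markers received no adjusted p in any comparison, and the 2 or 3 adipocyte markers that did were not called. Erythroid markers were lower in aged livers, with sums of 9671 to 21230 against 22967 to 86366 in young ones, and 2 of 5 were called: Hbb-bs (-1.67 ± 0.53, 0.0498) and Alas2 (-0.60 ± 0.18, 0.0255). In that comparison 3.58% of all genes tested were called. The macrophage marker Marco was higher in aged than in young livers (2.46 ± 0.69, 0.0178), 1 of 6, with sums of 2364 to 4026 against 2275 to 3943. The other macrophage markers lay between -0.09 (Clec4f) and 0.01 (Vsig4) there. The cholangiocyte marker Sox9 was higher in aged than in young (0.86 ± 0.24, 0.0169) and middle-aged livers (0.95 ± 0.24, 0.0117), 1 of 4 in each, with sums of 223 to 408, 280.2 to 352 and 120.1 to 448. The others tested went the other way without a call. Spp1, Krt19 and Krt7 were -0.59, -0.27 and -0.10 against young livers, and -0.13, -0.49 and -0.08 against middle-aged ones. Endothelial and stellate markers had no call in any comparison, nor had the 1 to 5 of 6 lymphocyte markers that were tested. The part of these cells in the values of the 9 genes was not tested. Of the 5 pancreatic markers, 4 were near 0 and Cela1 alone carried the sum, which was 259 to 795 in aged, 426 to 541 in middle-aged and 477 to 642 in young livers.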

How the data were processed

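RNA-seq read counts of 12 livers were analysed, 4 each at 3, 12 and 18 months, grouped by the sample titles. The authors deposited 1 table of whole-number counts per gene, without normalisation. The submitters' processing notes name STAR 2.5.2b, SAMtools 1.9, featureCounts, edgeR 3.28.1 and DESeq2 1.26.0 in R 3.6.3, on mm10 (GRCm38). Each of the 12 value columns carried the title of 1 liver, and 0 columns were set aside. The study's methods describe stranded libraries for young and old livers only, and its account of where its RNA-seq of 3 ages came from differs from the deposit, so the preparation is uncertain. The DESeq2 p-values set the differences between ages against the spread between livers of the same age, estimated for each gene over all 12 livers, 4 per age.

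Symbols, positions and exonic lengths came from GENCODE M21 (53360 of 53465 identifiers found). The 92 spike-in rows were left out of library sizes and tests. Counts of the 28449 genes with at least 1 count were fitted with DESeq2 1.42.0 in R 4.3.3, as the study names that tool with a false discovery rate of 5%. All 12 livers entered 1 fit with age as the only term, using median-of-ratios size factors, the Wald test for pairs of ages, the likelihood ratio test for the 3 ages and default independent filtering, which leaves an adjusted p missing for some genes. Called means a Benjamini-Hochberg adjusted p under 0.05 over all genes tested. Normalised counts are counts divided by size factors. Ratios of summed counts have exact conditional 95% intervals. Correlations used log2(normalised count + 1) and 100000 permutations, two-sided.

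Alternatives were edgeR 4.0.16 and limma 3.58.1 voom, both after filterByExpr, which kept 12099 genes and removed Fgf21. Others were TMM factors, total gene counts, a filter of 10 counts in 4 samples, no independent filtering, only the ages compared, a replicate block, the sets A and B (replicates 1 and 2, and 3 and 4) as a term, fits within sets and fits without each liver. An offset for exonic length (lowess span 0.3), edgeR with the block, and leaving out the pair of libraries with most detected genes were added after seeing the data. The scripts were tested on simulated data. The 9 genes, the other lists and the tests were chosen with earlier results of these data known. Beside all 9, the text names up to 4 called genes per list and comparison, by size of change among genes with a mean of at least 50. It also names the 3 most similar genes for each member called in a comparison. Rxra, Klb, Ppargc1b and the 2 other targets that fell between young and aged livers were named after their values were seen, as were the clock genes set beside aged replicates 3 and 4. Replicate numbers belong to different animals, and deviations of same-numbered livers correlated between -0.30 and 0.16 (over 0.1 in 2 of 12 pairs), so they do not pair the samples.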

Additional observations from a re-analysis of the deposited data

Results flagged for a closer look

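For 3 genes set A (replicates 1 and 2) and set B (replicates 3 and 4) moved in opposite directions, each liver of an age in a set lying beyond each liver of the other age, and the differences between the sets were not tested for these comparisons. Pdk4 was 1.28 within set A and -1.07 within set B between middle-aged and young livers, as log2 fold changes. Acot1 was -0.43 and 1.28, and Ehhadh -0.64 and 0.68, between aged and middle-aged livers, in the same order. With 2 livers per age in each set, separation of this kind arises easily, and the share of all genes that show it was not counted. Of 27 groups of 4 livers, 9 genes at 3 ages, 0 held a liver past Dixon's critical value, where chance flags about 1 in 20.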

How the results depend on the processing

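Of 582 refits of single genes, 527 kept their direction and side of the threshold, 21 lost a call, 14 gained one and 20 changed sign. The count of genes called between aged and young, 2, was 1 with edgeR, with the filter of 10 counts in 4 samples and without both libraries with most detected genes, and 0 with limma-voom, within set A and with edgeR and the replicate block. It was 1 to 3 without single livers and 2 with the replicate block in DESeq2. The count between middle-aged and young, 1, was 0 with edgeR, limma-voom, edgeR with the replicate block, no independent filtering and without both libraries, 2 with total gene counts, with the sets as a term and within set A, and 3 with the other age left out. It was 0 to 2 without single livers. The count between aged and middle-aged, 0, was 3 within set B. Across 3 ages the count of 2 was 0 with edgeR, limma-voom, edgeR with the replicate block and within set A, 1 with the filter, the replicate block and without both libraries, and 6 within set B. It was 0 to 4 without single livers. The interaction count, 0, was 1 with the filter and 0 to 1 without single livers. The 18 correlated pairs became 0 for deviations from the age means, and most of the 18 did not pass with Spearman's rho.

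Signs turned for these log2 fold changes. Within set A, Angptl4 was 0.27 for aged against young, and for aged against middle-aged Pdk4 was -0.073, Acot1 -0.43, Acot2 -0.27, Ehhadh -0.64 and Vnn1 -0.085. Within set B, Acot1 was -0.40 and Acot2 -0.12 for middle-aged against young. In that comparison Pdk4 was 0.091 with limma-voom, 0.24 with the replicate block, 0.14 with edgeR and the block, 0.22 with the sets as a term, 1.28 within set A and 0.34 without both libraries. Without single livers it ran from -0.40 to 0.34, and Ehhadh for aged against middle-aged from -0.13 to 0.25. The cause was not tested. Low counts limit Fgf21, which had no test in the edgeR, limma-voom and filtered fits.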
